A study of Homo sapiens with 2 samples.

Results

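The metallothioneins and the zinc response genes MTF1 and SLC30A1 were examined in SF-539 cells, a human glioblastoma (GBM) cell line, with and without stable knockdown of FKBP9. The genes were chosen by name in the deposited expression table, and all 8 members (MT1E, MT1F, MT1G, MT1M, MT1X, MT2A, MTF1 and SLC30A1) were found among its 58735 genes. Cells were infected with a pGIPZ lentivirus that carried a control shRNA in the shControl group and an FKBP9 shRNA in the shFKBP9 group, selected with puromycin and kept in DMEM with 10% FBS, at passages 15 to 18. Both groups therefore carried the vector and the selection, and how many clones or which FKBP9 shRNA a library stands for is not given in the sources used here. There was 1 RNA-Seq library per group, so no difference below has a replicate check and no test between the groups was possible.

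Metallothioneins are small cytosolic proteins, rich in cysteine, that bind zinc, copper and cadmium through their thiol groups. Their genes are switched on when free zinc or cadmium increases, through the zinc finger transcription factor MTF1, which binds metal response elements in their promoters. MTF1 also drives SLC30A1, the zinc exporter of the plasma membrane. Metallothionein genes respond in addition to glucocorticoids and to oxidative stress, and astrocytes are a known site of their expression in the brain.

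The 6 metallothionein members lie in a cluster on the long arm of chromosome 16 and encode almost the same protein. In hg38 the cluster runs from 56565049 to 56684196, which is 119 kb, and holds 16 of the 21 metallothionein rows of the table. The coding sequences of MT2A, MT1E and MT1M are shown from ATG, without the stop codon and spliced from GENCODE release 44, because they belong to the 2 most abundant genes and to the gene with the largest difference. Capitals mark bases that differ from MT2A in an alignment. They span chr16:56608656-56609351, chr16:56625852-56626968 and chr16:56632732-56633839, introns included, all on the plus strand.
MT2A: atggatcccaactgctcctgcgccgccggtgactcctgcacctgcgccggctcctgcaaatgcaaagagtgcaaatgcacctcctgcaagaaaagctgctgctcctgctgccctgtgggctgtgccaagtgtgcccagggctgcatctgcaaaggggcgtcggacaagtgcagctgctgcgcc
MT1E: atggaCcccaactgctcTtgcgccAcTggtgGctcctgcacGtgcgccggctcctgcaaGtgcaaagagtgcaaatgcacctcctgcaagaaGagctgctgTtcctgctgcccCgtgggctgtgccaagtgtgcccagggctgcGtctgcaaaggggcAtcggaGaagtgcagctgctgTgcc
MT1M: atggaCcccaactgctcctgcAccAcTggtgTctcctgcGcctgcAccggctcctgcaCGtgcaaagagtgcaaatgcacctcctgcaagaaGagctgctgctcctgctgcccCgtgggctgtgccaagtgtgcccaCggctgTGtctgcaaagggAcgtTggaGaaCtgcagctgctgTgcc

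Each of these sequences has 183 bases and 61 codons, of which 20 encode cysteine. MT1E differed from MT2A at 14 positions (92.3% identity) and MT1M at 19 (89.6%). Across the 15 pairs of the 6 members, identity of the coding sequence ranged from 88.5% to 93.5%. Reads of one gene could therefore be assigned to another, which was examined on the whole spliced transcripts. No window of 100 bases in the canonical transcript of MT2A, MT1E, MT1X, MT1F, MT1M or MT1G occurred in a transcript from another locus. With windows of 50 bases the shared part was 11.1% for MT2A, 10.3% for MT1E, 18.0% for MT1X, 6.12% for MT1F, 14.6% for MT1M and 19.9% for MT1G. The canonical transcript of MT1E has 2 exons and a coding part of 381 bases, unlike the transcript of the sequence printed above, which has 3 exons. In that transcript 0 windows of 100 bases and 5.34% of the windows of 50 bases were shared. How reads with several matches were counted is not given in the sources used here, so the genes were also summed.

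The promoters of 4 members (MT2A, MT1X, MTF1 and SLC30A1) were in the RefSeq promoter table of GRCh38.p14, while MT1E, MT1F, MT1G and MT1M were not. The 250 bases before the transcription start of MT2A (chr16:56608334-56608583), MT1X (chr16:56682220-56682469) and MT1H (chr16:56669564-56669813) are shown, all on the plus strand. MT2A and MT1X were expressed members, and MT1H was a gene of the same cluster without a fragment. Capitals mark matches on either strand to TGCACNC or TGCGCNC, the core of the metal response element.
MT2A: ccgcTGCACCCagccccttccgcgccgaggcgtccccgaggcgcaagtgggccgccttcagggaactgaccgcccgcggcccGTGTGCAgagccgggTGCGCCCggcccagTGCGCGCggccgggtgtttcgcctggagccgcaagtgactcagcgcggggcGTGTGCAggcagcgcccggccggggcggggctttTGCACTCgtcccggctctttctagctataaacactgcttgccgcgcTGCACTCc
MT1X: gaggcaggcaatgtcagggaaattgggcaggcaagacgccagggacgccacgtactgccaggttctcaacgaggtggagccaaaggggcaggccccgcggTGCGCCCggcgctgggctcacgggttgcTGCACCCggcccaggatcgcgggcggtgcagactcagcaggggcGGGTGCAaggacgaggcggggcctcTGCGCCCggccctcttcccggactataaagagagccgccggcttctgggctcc
MT1H: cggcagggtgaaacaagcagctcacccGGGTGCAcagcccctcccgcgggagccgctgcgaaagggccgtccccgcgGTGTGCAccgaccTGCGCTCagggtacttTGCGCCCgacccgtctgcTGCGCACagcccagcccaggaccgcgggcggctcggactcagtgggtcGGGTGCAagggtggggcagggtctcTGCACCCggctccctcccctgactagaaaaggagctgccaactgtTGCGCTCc

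In the window from 250 bases before to 50 bases after the start, MT2A held 8 such matches, MT1X held 4, SLC30A1 held 2 and MTF1 held 0. Among the 35116 promoters of the table, 29.6% held at least 1 match, 8.60% at least 2, 0.601% at least 4 and 0.0199% at least 8. MT1H, which was silent in both libraries, held 8 matches as well, so the number of matches did not separate it from MT2A. MT1B (2 fragments in shControl and 0 in shFKBP9) and MT4 (0 in both) were the remaining metallothioneins with a promoter entry. They held 3 matches each, fewer than the expressed MT2A and MT1X. The core TGACNNNGC of the antioxidant response element matched once in each of MT2A, MT1X and SLC30A1 and in 13.3% of all promoters. The core ACANNNTGT of the glucocorticoid response element was not found in the windows of these 4 members and occurred in 5.37% of all promoters. Sequence more than 250 bases before the start was not searched, so this absence holds for the window alone. Such a match of letters is a description of the sequence and was not tested as a binding site.

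The libraries held 18116873 (shControl) and 17158514 (shFKBP9) fragments on genes. Values were deposited as FPKM, that is fragments scaled by gene length and by library size, and every value was a whole multiple of 1 fragment, so fragments per gene could be recovered. FKBP9, the targeted gene, stood at 49.8 FPKM (shControl) and 4.68 FPKM (shFKBP9). Of the glioma markers, VIM (277 and 295 FPKM in shControl and shFKBP9), CD44 (48.6 and 55.6) and NES (2.36 and 2.17) were detected, whereas GFAP (0.196 and 0.139), OLIG2 (0.791 and 0.712), SOX2 (0.0879 and 0.162), PTPRZ1 (0.0223 and 0.0176) and S100B (0 fragments and 1) were below 1 FPKM. The labels call the cells epithelial glioma cells, yet EPCAM, CDH1 and KRT18 were also below 1 FPKM in both libraries and KRT8 stood at 1.28 and 1.09. Immune markers summed to 0.353 and 0.293 FPKM, endothelial markers to 0.107 and 0.149 FPKM and neuronal markers to 5.57 and 6.18 FPKM, nearly all of it SNAP25. A change in the share of some cells and a change in RNA per cell cannot be told apart in such bulk RNA.

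MT2A was by far the most abundant metallothionein. It had 1159 FPKM (27257 fragments) in shControl and 1493 FPKM (33303 fragments) in shFKBP9, which placed it at rank 18 and rank 15 of all genes. MT2A is the main metallothionein of most human tissues. MT1E followed with 276 FPKM (5248 fragments) in shControl and 383 FPKM (6916 fragments) in shFKBP9. MT1X, next in order among the members, had 37.2 FPKM (1194 fragments) in shControl and 49.4 FPKM (1505 fragments) in shFKBP9. MT1F had 31.3 FPKM (1070 fragments) in shControl and 41.1 FPKM (1333 fragments) in shFKBP9. In each of these 4 genes the shFKBP9 library was the higher one, and their order was the same in both libraries. MT1M was the least abundant of the 5 expressed metallothionein members, with 9.97 FPKM (170 fragments) in shControl and 16.1 FPKM (261 fragments) in shFKBP9.

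MT1G, which lies on the minus strand between 56666731 and 56668065, had 0 fragments in both libraries. A count of 0 allows up to 3 fragments, which would be 0.221 FPKM in shControl and 0.233 FPKM in shFKBP9. MT1A, MT1H and MT4, coding genes of the same cluster, also had 0 fragments, and so did MT1HL1 on chromosome 1. The cluster was thus not expressed as a whole: MT2A, MT1E, MT1M, MT1F and MT1X were on, with silent genes lying between them. MT3, the isoform known for its expression in neurons, had 1 fragment in shControl and 0 in shFKBP9, and MT1B had 2 and 0.

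**Figure D1:**
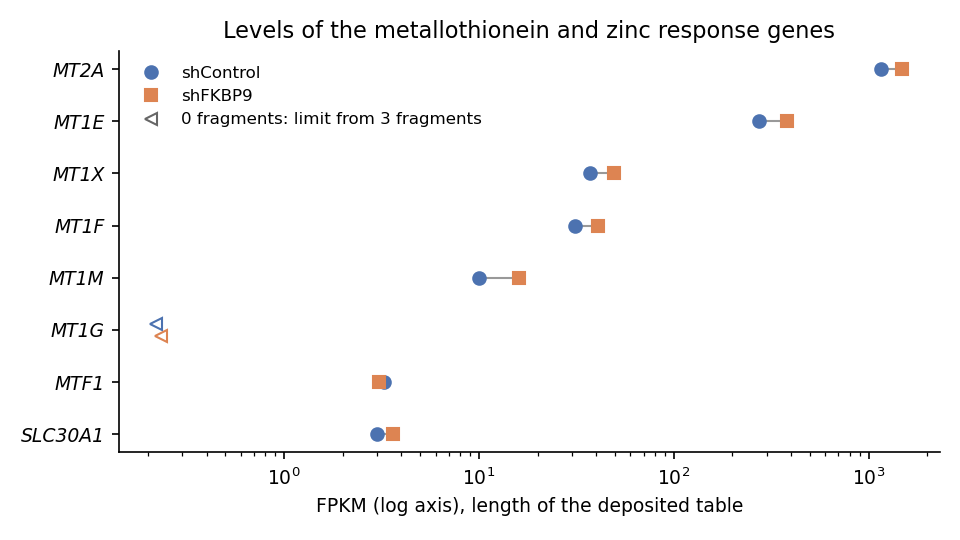
FPKM of the 8 members (log axis) in the shControl library (circles) and the shFKBP9 library (squares), 1 library each, with open triangles at the level that 3 fragments would give where 0 were found. The 5 expressed metallothioneins and SLC30A1 lie further right in shFKBP9, MTF1 overlaps, and levels span from about 3 FPKM for SLC30A1 (2.997 in shControl) to 1493 for MT2A.

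The distance between the genes depended on the length that FPKM is divided by. The table gives MT2A a length of 1299 bp, whereas its canonical spliced transcript in GENCODE release 44 has 401 bp, and for MT1X (1773 against 404 bp) and MT1F (1889 against 425 bp) the table's length was over 4 times the transcript. Divided by the spliced length, MT2A stood at 3754 in shControl and 4837 in shFKBP9, MT1E at 389 and 540, MT1X at 163 and 217, MT1F at 139 and 183 and MT1M at 23.6 and 38.2 FPKM. The order of the 5 genes did not change. In shControl MT2A was 4.21 times as high as MT1E by the deposited length and 9.66 times by the canonical spliced length. With the MT1E transcript whose coding sequence is printed above (704 bp in place of 746 bp), MT1E stood at 412 and 572 FPKM and the ratio was 9.12. The ratio between the libraries does not depend on this choice, because it uses the same length on both sides.

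All 5 expressed metallothionein members were higher in shFKBP9 than in shControl, each by less than 2-fold. Ratios of FPKM are given on the log2 scale after an addition of 0.1, and their 95% intervals (exact, Clopper-Pearson) rest on the recovered fragments alone and cover counting error only. The log2 ratio was 0.37 for MT2A (95% interval 0.34 to 0.39), which is a 1.29-fold higher level. For MT1E it was 0.47 (0.42 to 0.53), for MT1X 0.41 (0.30 to 0.52) and for MT1F 0.39 (0.28 to 0.51). MT1M had the largest difference, 0.69 (0.41 to 0.98), or 1.61-fold. The intervals of MT1E and MT1M lay above that of MT2A, whereas those of MT1X and MT1F overlapped with both MT2A and MT1E.

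Of the 7 members that reached 1 FPKM, 0 passed 2-fold, against 2.02% of the 12741 genes that reached 1 FPKM in 1 library or both that were more than 2-fold higher and 2.19% that were more than 2-fold lower. All members are protein-coding, and among the 10346 protein-coding genes at this level the shares were 0.213% and 0.193%. Of the 7 members with at least 10 fragments, 6 had an interval above 0 and 0 below it. Among all 17105 genes with that many fragments the interval lay above 0 for 13.8% and below 0 for 16.9%, and among the 13040 protein-coding ones for 16.7% and 20.3%. Because deep genes pass this second rule at small differences, the members were also set against the 9113 genes with at least 400 fragments in both libraries together, a minimum met by 7 of the 8 members. Both this minimum and the limit of 1.25-fold used with it were chosen after the values were seen. Of these 9113 genes, 4.66% were more than 1.25-fold higher in shFKBP9 and 5% more than 1.25-fold lower. The 5 expressed metallothioneins lay above 1.25-fold, but since that limit falls between SLC30A1 (1.20-fold) and MT2A (1.29-fold), their count is a description from which nothing is read. At 1.5-fold only MT1M was past the limit. A log2 ratio as high as that of MT2A or higher was found for 3.04% of the 9113 genes, and one as high as that of MT1M for 0.340%. The 5 genes share a cluster and much of their sequence and are not independent observations.

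Summed over the 6 members, metallothionein fragments numbered 34939 in shControl and 43318 in shFKBP9. This was 0.193% of all fragments on genes in shControl and 0.252% in shFKBP9, a log2 ratio of 0.39 (95% interval 0.37 to 0.41) or 1.31-fold. The sum over all 21 metallothionein rows gave 35394 and 43873 fragments and the same log2 ratio of 0.39. Exchange of reads between copies would leave this sum unaltered, whereas reads lost because they match several copies would be missing from it. Without MT2A, the other 5 members had 7682 and 10015 fragments and a log2 ratio of 0.46 (0.42 to 0.50). MT2A held 78.0% of the summed fragments in shControl (exact 95% interval 77.6 to 78.4) and 76.9% in shFKBP9 (76.5 to 77.3). MT1E held 15.0% (14.6 to 15.4) and 15.97% (15.6 to 16.3). The intervals did not overlap between the libraries for MT2A and for MT1E, but these intervals, too, cover counting error only. The shares of MT1X (3.42% and 3.47%), MT1F (3.06% and 3.08%) and MT1M (0.487% and 0.603%) had overlapping intervals.

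Of the 21 metallothionein rows 12 were coding genes and 9 pseudogenes, and 12 rows had a fragment in either library. MT1L, a transcribed pseudogene between MT2A and MT1E, had 58.7 FPKM (437 fragments) in shControl and 75.4 FPKM (532 fragments) in shFKBP9, with a log2 ratio of 0.36 (0.18 to 0.55). The ratio of MT1L lay close to that of MT2A. The remaining rows held few fragments. MT2P1, a processed pseudogene on chromosome 4, had 11 fragments in shControl and 12 in shFKBP9, MT1JP had 2 and 7, MT1DP had 2 and 2 and MT1XP1 had 0 and 2, too few to show a difference at this depth.

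Genes around the cluster with at least 10 fragments had lower ratios than the metallothionein rows within it. Within 500 kb on either side, 15 other rows had at least 10 fragments, and the interval lay above 0 for 0 of them and below 0 for 3. Over all genes these shares were 13.8% and 16.9%, so the 3 of 15 lay near the background. The interval lay above 0 for all 6 metallothionein rows of the cluster with at least 10 fragments. The nearest gene with at least 1 FPKM before the cluster was BBS2, a subunit of the BBSome of primary cilia, at -44.8 kb, with 709 fragments in shControl, 641 in shFKBP9 and a log2 ratio of -0.07 (-0.23 to 0.09). On the other side it was NUP93, a scaffold protein of the nuclear pore, at 45.9 kb, with 1898 and 1517 fragments and a log2 ratio of -0.24 (-0.34 to -0.15). OGFOD1, a prolyl hydroxylase of a ribosomal protein, had the highest ratio among neighbours with at least 50 fragments (0.13, -0.01 to 0.27). FAM192A (-0.07, -0.17 to 0.03) was the lowest after NUP93. Of the 11 neighbours that reached 1 FPKM, 1 was past 2-fold lower, against 2.19% of all genes at this level. This was the RNA AC012181.1, sense intronic to HERPUD1, with 17 fragments (1.34 FPKM) in shControl and 4 (0.333 FPKM) in shFKBP9. It met the minimum of 1 FPKM only through shControl, the library where it was higher. HERPUD1 itself, a gene of the ER stress response, had a log2 ratio of 0.05 (-0.06 to 0.15).

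**Figure D2:**
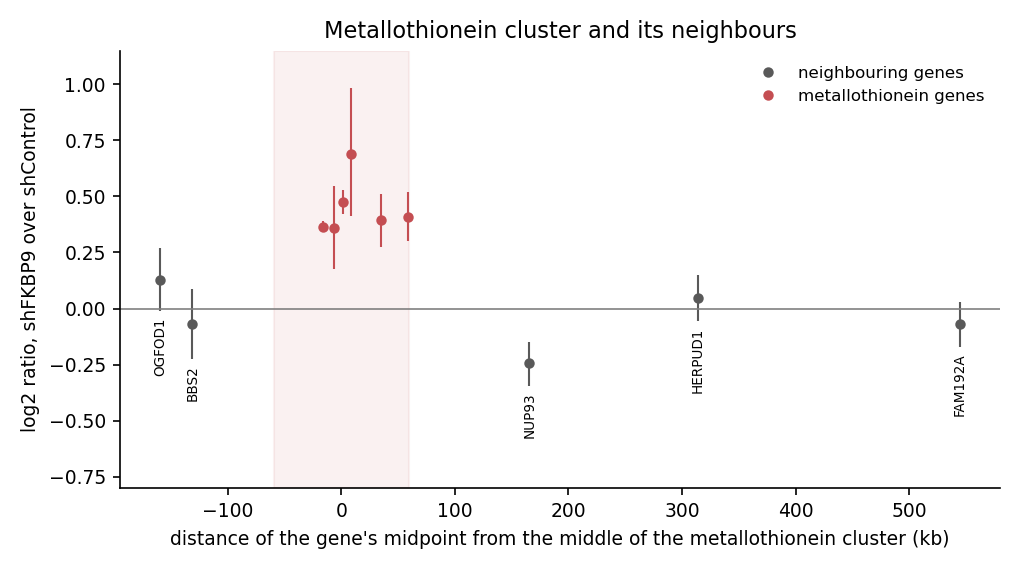
log2 ratio of shFKBP9 over shControl against the distance of each gene's midpoint from the middle of the metallothionein cluster in kb, for metallothionein rows with at least 50 fragments and for the neighbours BBS2, FAM192A, HERPUD1, NUP93 and OGFOD1, with vertical lines for exact 95% counting intervals and the cluster shaded. Metallothionein genes (red) lie between 0.36 and 0.69, and these neighbouring genes (grey) between -0.24 and 0.13.

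MTF1, the transcription factor of the metal response, was at the same level in both libraries within counting error. It had 3.25 FPKM (472 fragments) in shControl and 3.06 FPKM (422 fragments) in shFKBP9, with a log2 ratio of -0.08 (-0.28 to 0.11). MTF1 lies on the minus strand of chromosome 1 from 37809567 to 37859620. Its activity is regulated by zinc binding and entry into the nucleus, neither of which RNA-Seq measures. SLC30A1 lies on chromosome 1 from 211571568 to 211578742, also on the minus strand, and exports zinc from the cell. It had 2.997 FPKM (297 fragments) in shControl and 3.61 FPKM (339 fragments) in shFKBP9, with a log2 ratio of 0.26 (0.04 to 0.50). This interval lay above 0 but overlapped with those of MT2A, MT1E, MT1X, MT1F and MT1M, and 8.14% of the 9113 deep genes had a ratio as high or higher.

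The zinc exporters (SLC30A, ZnT), SLC30A1 included, had more ratios above 0 than below it. Of the 10 genes 8 had a fragment, 7 of these were higher and 1 was lower, and the median log2 ratio was 0.21, compared with -0.0015 over all 27477 genes with a fragment. Past 2-fold were 0 genes, against 2.02% higher and 2.19% lower over all genes, and the interval lay above 0 for 4 of 7 genes with at least 10 fragments, which were SLC30A1, SLC30A6, SLC30A7 and SLC30A9, and below 0 for 0. Over all genes, 13.8% had an interval above 0 and 16.9% below it, and 49.8% of genes with a fragment were higher. The genes of this list and of the lists below are all protein-coding. Among protein-coding genes 16.7% had an interval above 0 and 20.3% below it. Past 2-fold, 0.213% of them were higher and 0.193% lower. SLC30A7, which loads zinc into the early secretory pathway, had the highest value, 0.37 (0.23 to 0.53), with 4.21 FPKM in shControl and 5.47 in shFKBP9. SLC30A6 followed with 0.31 (0.16 to 0.47). At the other end were SLC30A10, known as a manganese exporter (-0.13, -0.73 to 0.41), and SLC30A5 (0.12, -0.01 to 0.25). SLC30A2 and SLC30A8 had 0 fragments.

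The zinc importers (SLC39A, ZIP) lay on both sides of 0. All 14 genes had a fragment, 5 were higher and 9 lower, and the median log2 ratio was -0.03, against 49.8% higher and a median of -0.0015 over all genes with a fragment. The interval lay above 0 for 1 of 13 genes with at least 10 fragments and below 0 for 2, near the shares over all genes (13.8% and 16.9%). The gene above 0 was SLC39A6, with 870 fragments in shControl, 1006 in shFKBP9 and a log2 ratio of 0.28 (0.15 to 0.42). SLC39A14 was lower by a small amount (-0.07, -0.10 to -0.03) from 101 to 96.2 FPKM, and SLC39A5 had 12 fragments in shControl and 3 in shFKBP9, the lowest ratio of the list (-1.04, -4.39 to -0.03). SLC39A10, whose gene MTF1 is known to repress, stood at 0.14 (-0.10 to 0.38). SLC39A1 (56 and 38 fragments, -0.43, -1.12 to 0.14) and SLC39A3 (-0.10, -0.28 to 0.07) were lowest among importers with at least 50 fragments. SLC39A7, which releases zinc from the ER, was the most abundant importer, with 129.8 FPKM in shControl and 134 in shFKBP9 and a log2 ratio of 0.05 (-0.00 to 0.10).

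Other genes known to be driven or repressed by MTF1, SLC30A1 among them, also lay on both sides of 0. The 5 genes of this list had a median log2 ratio of 0.26, with 4 higher and 1 lower, against 49.8% higher over all genes, and 0 past 2-fold, against 2.02% higher and 2.19% lower. Intervals lay above 0 for 2 of the 5 and below 0 for 1, against 13.8% and 16.9% of all genes. This median is the value of SLC30A1 itself, and it was 0.11 with 1 added to FPKM in place of 0.1. GCLC, the catalytic subunit of glutathione synthesis, had 3.89 FPKM in shControl and 4.90 in shFKBP9 (0.32, 0.17 to 0.49). PGF, placental growth factor, had 22 and 31 fragments (0.41, -0.26 to 1.43). SELENOW, a small selenoprotein, was lower, with 9.87 FPKM in shControl and 8.25 in shFKBP9 (-0.26, -0.40 to -0.12).

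Genes that handle copper, another metal that metallothioneins bind, lay on both sides of 0. The 11 genes correspond to 12 rows, since SCO2 has 2. Their median log2 ratio was 0.10, with 8 rows higher and 4 lower (49.8% higher over all genes) and 0 past 2-fold (2.02% higher and 2.19% lower over all genes). The interval lay above 0 for 1 of 11 rows with at least 10 fragments and below 0 for 1, against 13.8% and 16.9% of all genes. ATP7A, the copper-exporting ATPase, stood at 0.16 (-0.08 to 0.43) and COMMD1 at 0.14 (-0.07 to 0.35). ATOX1, the chaperone that hands copper to ATP7A, stood at 0.12 (0.01 to 0.24). Among rows with at least 50 fragments, SOD1, superoxide dismutase, was lowest with -0.10 (-0.17 to -0.03), followed by SLC31A1, the main copper importer, with -0.04 (-0.15 to 0.07). ATP7B, the other copper-exporting ATPase, had 27 fragments in shControl and 16 in shFKBP9, with a ratio of -0.37 (-1.67 to 0.27).

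Genes of oxidative and heavy metal stress, some of which cadmium induces together with metallothioneins, were mixed. The 12 genes had a median log2 ratio of 0.03, with 8 higher and 4 lower, and intervals above 0 for 3 and below 0 for 2. These counts read against 13.8% and 16.9% of all genes with such intervals and 49.8% that were higher. HMOX1, heme oxygenase 1, had 15.9 FPKM in shControl and 17.0 in shFKBP9 (0.09, -0.06 to 0.24), and NQO1 had 92.6 and 91.1 (-0.02, -0.08 to 0.03). Past 2-fold was 1 of the 12, SLC7A11, the cystine transporter, with 103 fragments (0.590 FPKM) in shControl and 236 (1.43 FPKM) in shFKBP9. It met the minimum of 1 FPKM only through shFKBP9, the library where it was higher. Over all genes 2.02% were past 2-fold higher, and over protein-coding genes 0.213%. After it came GCLC, given above, and GCLM, the other subunit of the same enzyme (0.23, 0.00 to 0.46). HSPA1B, an inducible HSP70, was lowest, from 26.7 to 20.0 FPKM (-0.42, -0.54 to -0.29). Its near-identical copy HSPA1A had 48 and 46 fragments, and reads of the pair may have been split between them. SRXN1 stood at -0.11 (-0.56 to 0.32).

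Glucocorticoid-responsive genes lay on both sides of 0, with intervals above 0 for 2 of 6 and below 0 for 2, against 13.8% and 16.9% of all genes. FKBP5, a cochaperone of the glucocorticoid receptor, had 3.36 FPKM in shControl and 2.55 in shFKBP9 (-0.39, -0.57 to -0.23). PER1, a clock gene, had 4.80 and 3.45 (-0.46, -0.66 to -0.29). KLF9 was higher (0.35, 0.11 to 0.61), as was NR3C1, which encodes the receptor (0.13, 0.04 to 0.22). Across the 7 genes, of which ZBTB16 had 0 fragments, the median log2 ratio was -0.02, with 2 higher and 4 lower, against 49.8% higher over all genes, and 0 past 2-fold, against 2.02% and 2.19%.

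**Figure D3:**
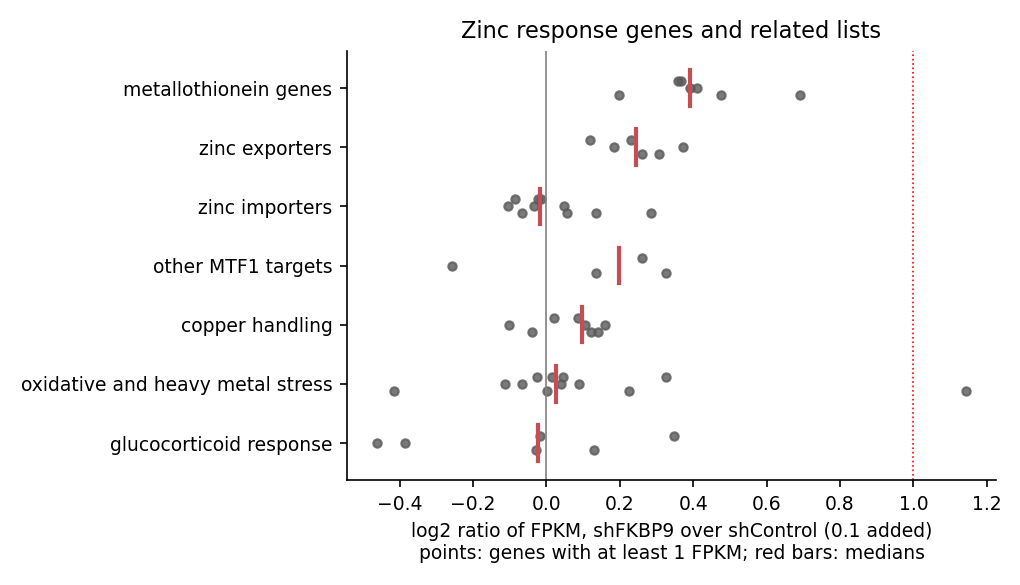
log2 ratios of shFKBP9 over shControl for genes that reached 1 FPKM (points) in the metallothionein, zinc exporter, zinc importer, MTF1 target, copper, stress and glucocorticoid lists with the median of these genes (red bar) and 2-fold (dotted). The medians of these expressed genes are 0.39 for the metallothionein rows, 0.25 for the zinc exporters and -0.02 for the zinc importers. SLC7A11 is the 1 plotted gene past 2-fold, and it reached 1 FPKM in shFKBP9 alone.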

How the data were processed

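RNA of the control and the knockdown cells was sequenced in 1 library each. According to the methods and the submitters' processing notes, the authors removed adapter, poly-N and low-quality reads, aligned paired-end reads to hg38 with HISAT2 2.0.5 and counted them per gene with featureCounts 1.5.0-p3. The authors deposited FPKM with gene lengths; the annotation release and the treatment of multi-mapping reads are not given in the sources used here. Whether counting used strand is not given either. AC026461.1 overlaps MT1X and AL929472.4 overlaps MTF1, each with 0 fragments.

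Fragments were recovered from FPKM, gene length and the smallest step per library (100% whole, tolerance 1e-06), and the calculation was tested on simulated data. One fragment per kilobase equals 0.0552 FPKM in shControl and 0.0582 in shFKBP9. log2 ratios used FPKM with 0.1 added, intervals were exact Clopper-Pearson at 95%, and genes counted past 2-fold had at least 1 FPKM in either library. Summed fragments were scaled by fragments on genes. With 1 library per group no test was made.

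Named were the members, metallothionein rows with a fragment, FKBP9, markers, and per list the genes past 2-fold and the 2 highest and 2 lowest with at least 50 fragments; genes beyond this rule (such as those whose interval excluded 0, silent genes, HERPUD1, SLC39A7, ATP7B, HMOX1, NQO1 and HSPA1A) were picked once values had been seen. One neighbouring gene is not reported here. The members and lists were chosen with earlier results of these data known. Alternatives were other additions to FPKM, median scaling, TPM, other minimums and folds, and other sums; the spliced lengths, the sum with MT1L and the interval shares of protein-coding genes were chosen after seeing the data. Python 3.11.15, numpy 2.4.6, pandas 2.3.3, scipy 1.17.1, matplotlib 3.10.9 and Biopython 1.88 were used.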

Additional observations from a re-analysis of the deposited data

How the results depend on the processing

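The log2 ratios of the 7 expressed members stayed within their counting intervals with 1 or 0.01 added to FPKM, with median scaling and with TPM, and kept their sign. Across these settings MT2A ranged from 0.35 to 0.38, MT1M from 0.64 to 0.71, SLC30A1 from 0.21 to 0.28 and MTF1 from -0.10 to -0.06. The sum of the metallothioneins, 0.39, moved outside its interval in 1 alternative, to 0.46 without MT2A, and was 0.37 without MT1E. The 258 genes higher and 279 lower than 2-fold became 138 and 153 when 1 was added. Without any minimum level there were 2022 and 1993 such genes, and 40 and 41 where both libraries had to reach 1 FPKM. There were 22 and 20 among protein-coding genes, and 541 and 565 at 1.5-fold. At 1.25-fold with at least 400 fragments, a setting chosen after seeing the data, they were 425 and 456. At 1.5-fold, 1 member (MT1M) was past the limit. The median of the MTF1 targets went from 0.26 to 0.11 with 1 added to FPKM. Medians near 0 kept their sign but moved with scaling or TPM, from -0.01 to -0.05 for the zinc importers, 0.0097 to 0.04 for the stress genes and -0.0069 to -0.04 for the glucocorticoid genes. With 1 library per group no library could be left out, and the spread between cultures is unknown. Fragments limited MT1M and SLC30A1 most among the expressed members. No paired analysis was possible because each group has 1 library.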
